A study of Mus musculus with 2 samples.

Results

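The genes described here are the MYC network and the genes that build ribosomes in the nucleolus: 44 genes of the 22911 that could be named on the array. They were chosen by symbol, with earlier results of these data known. They comprise MYC, MAX and their MXD and MNT antagonists (9 genes), nucleolar, small nucleolar ribonucleoprotein (snoRNP) and RNA polymerase I genes (33 genes), and 2 genes of polyamine synthesis. Ribosomal protein genes are not among them. All 44 had at least 1 probe that could be named, 74 such probes in all, and 43 had a signal well above background on both arrays. The exception was Mycl, whose probes were not well above background on either array. Probes that could not be named were left out, so a gene may have further probes on the array, also where 1 probe is stated.

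HSPCs of WT mouse BM, sorted as LKS+ cells (negative for lineage markers, positive for Kit and Sca-1), were expanded in culture (S-Clone SF-03) with 3 cytokines, IL-3 and IL-6 at 10 ng/ml and SCF at 100 ng/ml, and BSA at 1%. EVs isolated from spleen were then given at 150 μg/ml for 24 h. In the control EV group the EVs came from normal mouse spleen, and in the CML EV group from the spleen of mice with a CML-like disease made by transplanting LKS+ cells carrying a BCR-ABL retrovirus. The study's methods state that the CML donors of this experiment had been irradiated, which the sample labels do not mention, and they say nothing of irradiated control donors, so that effects of leukemia and of irradiation in the EV donors cannot be told apart. The strain of the LKS+ cells of this experiment and the number of mice behind each RNA are not given in the sources used here, and no culture without EVs was analysed here. RNA of each culture went to 1 Agilent 1-colour mouse array, so that 2 arrays were compared. There was no replicate check, no test could be made, and every difference describes these 2 cultures.

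MYC is a transcription factor that pairs with MAX and binds the E-box CACGTG. Its targets in many cell types include the genes for rRNA synthesis, rRNA modification and ribosome assembly, so that their mRNAs are a customary readout of MYC activity. MXD1, MXD3, MXD4, MXI1 and MNT compete for MAX, occupy the same E-boxes and repress. In hematopoiesis MYC is known for the growth and exit from quiescence of progenitors, and MXD proteins for the cell cycle exit that goes with terminal myeloid differentiation.

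The E-box is the sequence that MYC and its antagonists share, and it is shown here where it lay in the promoters of these genes. Promoter windows from 250 bases before to 50 bases after a transcription start (RefSeq, GRCm38.p6) were given for 37 of the 44 genes, and not for Myc, Npm1, Fbl, Bop1, Rrs1, Rrp12 and Srm. CACGTG, a palindrome and so the same on both strands, was searched with no mismatch; it lay in the windows of 9 of the 37 genes (24.3%), of 8.09% of all 27025 genes with a window and of 11.5% of the 10726 such genes with a signal well above background on both arrays. The lines below give these E-boxes in capitals with up to 10 bases on either side, on the strand of the gene. Distances are those of the first base of CACGTG, so that the E-box of Max runs across the start.
Mnt (a repressor that pairs with MAX), chr11:74830791-74830816, plus strand, 123 bases before the start: ccacccaagcCACGTGtgcgcgcgcg
Mxd4 (another such repressor), chr5:34187914-34187939, minus strand, 219 bases before the start: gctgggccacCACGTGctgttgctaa
Max (the partner of MYC), chr12:76962236-76962261, minus strand, 3 bases before the start: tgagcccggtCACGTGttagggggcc
Nop2 (an rRNA methyltransferase), chr6:125131813-125131838, plus strand, 60 bases before the start: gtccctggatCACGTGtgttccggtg
Pes1 (large subunit assembly), chr11:3963967-3963992, plus strand, from base 3 of the transcript: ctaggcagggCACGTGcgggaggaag
Grwd1 (large subunit assembly), chr7:45830740-45830765, minus strand, from base 35 of the transcript: gccggagtcgCACGTGtgaaaccgga
Mybbp1a (a nucleolar MYB-binding protein), chr11:72441357-72441376, plus strand, from base 41 of the transcript: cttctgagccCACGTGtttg
Utp20 (small subunit assembly), chr10:88826765-88826787, minus strand, from base 38 of the transcript: gcactaactaCACGTGaggaaaa
Wdr43 (small subunit assembly), chr17:71616222-71616247, plus strand, from base 18 of the transcript: cccgggcgaaCACGTGgctgccgcgg
A match to these letters is a description of the window and shows no binding. Other E-box forms were not searched.

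Values are Agilent processed signals scaled to a trimmed mean of 2500 per array, in arbitrary units, and each ratio sets the CML EV culture over the control EV culture on the log2 scale, so that above 0 is higher with CML EVs. In pairs of signals, the control EV array comes first. Where a gene had several probes, that with the highest CML EV signal was used, as in the study. Signals of different probes are not compared with each other. Some probes stood in 10 spots on each array, and the spread between such spots, the only one that could be had, corresponded to an SD of the log2 ratio of 0.05 (median of 272 probes with a mean log2 signal of at least 8), or 0.19 for dimmer probes (median of 11). Different probes of a gene differed more: over the 3847 genes with 2 probes well above background, the ratios of both probes were a median of 0.10 apart, and 0.45 at the 95th percentile. Neither spread covers cultures or EV preparations. Well above background were 54.4% of the 59305 non-control spots of the control EV array and 53.3% of those of the CML EV array, and none was saturated. The cells carried the markers of the labelled HSPCs: Kit, Cd34, Ly6a, which encodes Sca-1, and Ptprc, which encodes CD45, were well above background on both arrays. Markers of other myeloid cells were mostly well above background on both arrays too, so these 4 markers do not show HSPCs alone. They were 20 of 22 for granulocytes, 10 of 10 for mast cells and basophils, 12 of 12 for megakaryocytes and 11 of 12 for monocytes and macrophages. Markers of T and B cells and of spleen stroma were mixed, and those named next were chosen after their values were seen. Of 12 T and B cell markers, 4 were well above background on both arrays, Cd79b (734 and 751), Cd4 (544 and 484), Cd3e (143 and 136) and Cd3d (141 and 176), and 5 on neither, Cd3g, Cd8a, Ms4a1 and Cd79a among them. Of 12 spleen stroma markers, 3 were well above background on both arrays, Pdgfrb (364 and 354), Col1a2 (254 and 252) and Pecam1 (219 and 216), and 8 on neither, Col1a1, Col3a1 and Cdh5 among them.

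The 4 largest log2 ratios in size among these genes were those of MYC network genes. Myc and Mycn were 1.19-fold and 1.17-fold lower with CML EVs, while the repressor genes Mxd1 and Mxi1 were 1.34-fold and 1.24-fold higher. The 35 nucleolar, RNA polymerase I and polyamine genes lay on both sides of 0, 17 higher and 18 lower, with a median log2 ratio of -0.01 and a range from -0.19 to 0.20. Over all 43 measured genes the median was -0.00, with 21 higher and 22 lower, where 52% of all 13409 genes measured on both arrays were higher and their median was 0.01. Of the 6704 genes with a mean log2 signal above the median, 58.9% were higher and their median was 0.02. Of the 43, higher and lower numbered 29 and 14 with each array scaled to its median, and 17 and 26 with quantile normalization. They numbered 16 and 27 after removal of a loess trend, and 14 and 29 with normexp background correction. Median scaling raised all genes alike, to a median of 0.08, beside 0.07 for the 43. With quantile normalization the medians were 0.00 over all genes and -0.02 over the 43, and with normexp 0.00 and -0.04. The median of the 43 was thus slightly below that of all genes, but with 1 array per group no direction can be given for the group.

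At least 1.1-fold higher were 4 of the 43, namely Mxd1, Mxi1, Fbl and Mxd3, and at least 1.1-fold lower were 5, namely Myc, Mycn, Polr1b, Noc3l and Utp20. In all genes these shares were 17.3% higher and 17.2% lower, more than in the 43. The genes described here are bright, and 39 of the 43 belonged to the brighter genes, those with a mean log2 signal above the median. Over all such brighter genes 14.2% were at least 1.1-fold higher and 6.34% at least 1.1-fold lower. Beside the brighter genes the 43 thus had a smaller share higher but a larger share lower. The split of 4 higher and 5 lower became 8 and 2 with median scaling, 4 and 8 with quantile normalization, 4 and 10 after removal of a loess trend and 4 and 11 with normexp. At least 25% higher with CML EVs was Mxd1 alone, and no gene was at least 25% higher with control EVs, where the shares in all genes were 5% and 5.25%. Of the 6704 brighter genes, 154 and 35 were so. Between the quartiles of all genes, which were -0.09 and 0.09, lay 26 of the 43, and 16 had a ratio smaller in size than the spot SD of 0.05. The quartiles of the brighter genes were closer together, at -0.04 and 0.09. The share of all genes within the spot SD is not given here, so the count of 16 does not set the 43 apart.

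**Figure D1:**
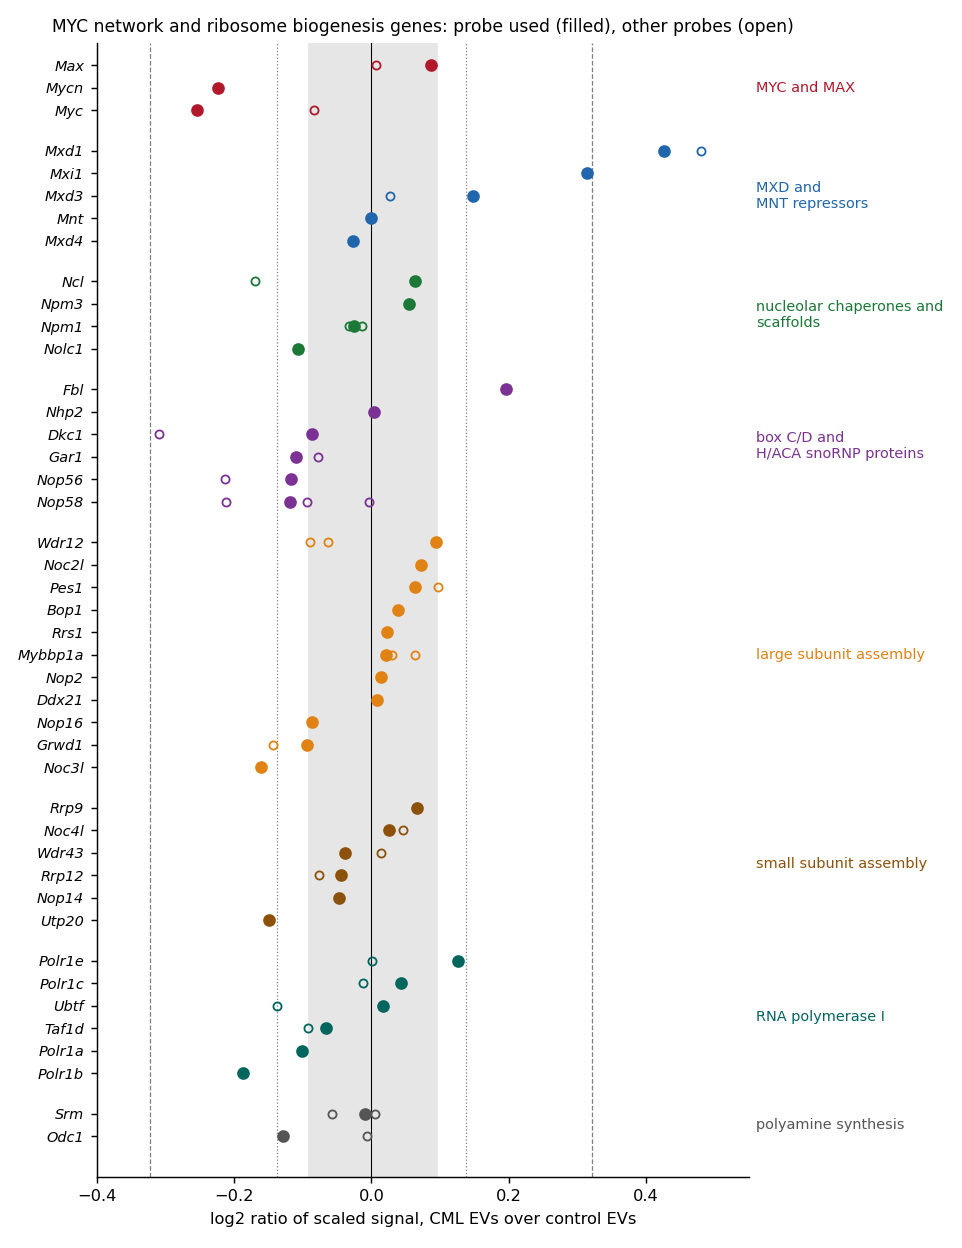
Log2 ratio of the scaled signal, CML EVs over control EVs (x axis), for the 43 measured genes (rows), grouped by role. Filled points are the probe used and open points other probes of the gene that were well above background on both arrays; the grey band spans the quartiles of all genes (-0.09 to 0.09), dotted lines mark 1.1-fold and dashed lines a signal 25% higher in either culture. Mxd1 lies to the right of the dashed line with both probes, Mxi1 next to it, Myc and Mycn lie lowest among the filled points, and most nucleolar genes lie in or near the band.

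Myc, Mycn and Mycl encode the activators of the network. Myc had a signal of 3883 on the control EV array and 3255 on the CML EV array (log2 ratio -0.25). Its other probe gave 473 and 447 (-0.08), also lower but by less than the median distance between probes of a gene. Mycn, a paralogue of Myc known in hematopoietic stem cells, had 3391 and 2906 (-0.22, 1 probe). Both used probes were lower with CML EVs. Under the 12 alternative settings the ratio lay between -0.28 and -0.17 for Myc and between -0.25 and -0.15 for Mycn. Many of these settings shift all genes alike, leave the ratios as they are or cannot move a gene with 1 probe. A sign kept under them, here and for the genes below, is therefore no support for a direction. Of the brighter genes, 1.07% had a lower ratio than Myc and 1.89% a lower ratio than Mycn; of all genes, 7.90% and 9.76% did. Mycl, the third activator, had signals from 2.85 to 4.17 over both probes and arrays, where the lowest signals well above background were 12.9 and 13.6, so that no ratio is given. Max, the shared partner, lay the other way, with signals of 6219 and 6604 (0.09), and its other probe with 508 and 510 (0.01).

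Mxd1 encodes MAD1, a repressor that replaces MYC on MAX in maturing myeloid cells. Its signals were 1128 and 1517 (0.43, 1.34-fold), the highest ratio among the 43 genes. The other Mxd1 probe was dim, at 37.9 and 52.9, and gave 0.48. Mxi1, a second antagonist of that family, had signals of 1934 and 2404 (0.31, 1 probe). Both genes were higher with CML EVs under each alternative setting, between 0.40 and 0.50 for Mxd1 and between 0.29 and 0.38 for Mxi1. Of all genes 3.04% had a higher ratio than Mxd1 and 5.21% a higher ratio than Mxi1, and of the brighter genes 1.22% and 2.39%.

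Mxd3, the family member linked to proliferating cells, was dim and its probes differed: 147 and 163 (0.15) with the probe used, 151 and 154 (0.03) with the other. Both ratios lie within the SD of 0.19 for dimmer probes. Mxd4 had 165 and 162 (-0.03). Mnt, the MAX-binding repressor that is expressed in most cells, had 4570 and 4567 (-0.00). Mxd1 and Mxi1 were thus apart from Mxd4 and Mnt of the same family, for which the differences were below the spot SD. The median of the repressor genes was 0.15 (5 genes), but 0.03 with the probe highest in the control EV culture, since that median is then Mxd3.

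**Figure D2:**
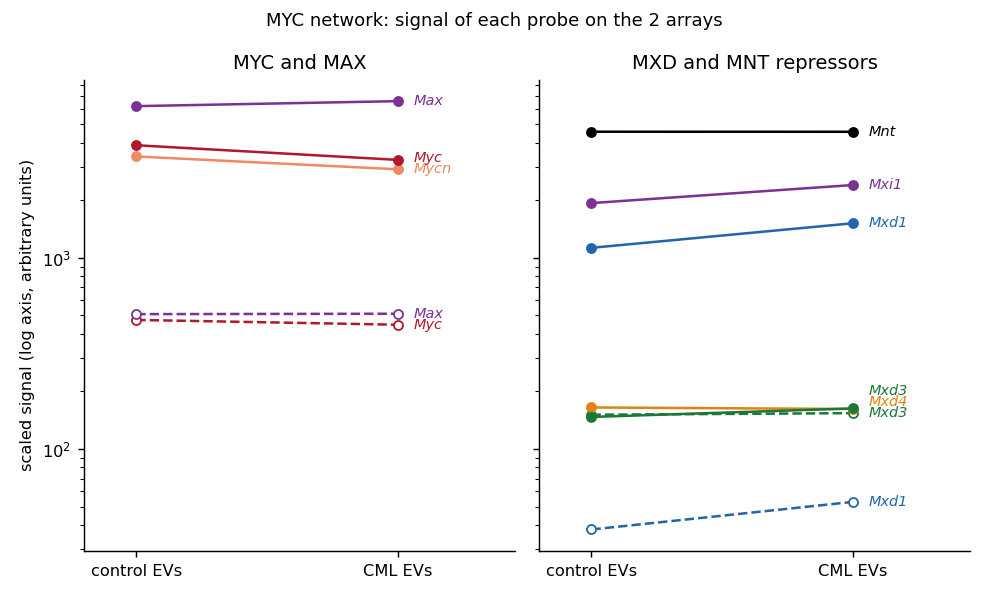
Scaled signal (log axis, arbitrary units) of each probe of the measured MYC network genes on the control EV array and the CML EV array, 1 array each; filled points with solid lines are the probes used, open points with dashed lines other probes of the gene. Lines of Myc and Mycn slope down, those of Mxd1 (both probes) and Mxi1 slope up, and those of Mnt and Mxd4 are nearly level; heights of different probes are not comparable.

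Most granulocyte markers were higher in the CML EV culture, and whether this is tied to the MYC network values was not tested. Of 22 genes of granulocyte granules and their regulators, 20 were measured and 18 were higher with CML EVs, with a median log2 ratio of 0.80 and a summed signal of all listed genes on the array of 572632 and 755452. The 2 lower genes were Mmp8 (-0.09) and Itgam (-0.20, but 0.43 with its other probe). Elane, neutrophil elastase of primary granules, went from 15311 to 34735 (1.18) and Fcnb, ficolin B, from 276 to 589 (1.09). Stem and progenitor markers were lower in 15 of 18 measured genes, with a median of -0.10 and summed signals of 68654 and 63260. Slamf1, CD150, had 286 and 221 (-0.37). Of the markers on which the sort rests, Kit was at 1646 and 1529 (-0.11) and Ly6a at 1548 and 1985 (0.36), while Cd34 was at 24845 and 21997 (-0.18) and Ptprc at 4229 and 4315 (0.03).

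All 12 megakaryocyte markers were lower, with a median of -0.29, and summed signals of 84560 and 76154. Gp1bb (337 and 249, -0.44) and Gp5 (576 and 426, -0.43), both of the platelet von Willebrand factor receptor complex, were the lowest of them. Monocyte and macrophage markers had a median of 0.08 over 11 genes, with Ly6c2 at 30081 and 47021 (0.64) and Mrc1, the mannose receptor, at 787 and 624 (-0.34). Of the erythroid markers 5 of 10 were measured, with a median of 0.13; the highest were Klf1, an erythroid transcription factor, at 388 and 455 (0.23) and Hba-a1, alpha globin, at 980 and 1149 (0.23). Mast cell and basophil markers (10 genes, median 0.04), T and B cell markers (4 of 12 measured, -0.02), spleen stroma markers (3 of 12 measured, -0.02) and reference genes (14 genes, 0.01) had medians within the spot SD. The part of any of these cell type markers in the values of Mxd1, Mxi1, Myc and Mycn was not tested. In bulk RNA, fewer cells of a type and less RNA per cell cannot be told apart.

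The nucleolar chaperones and scaffolds were close to level, with a median of 0.01 (4 genes), or -0.04 with each gene's probes averaged. Npm1, nucleophosmin, was measured most often, since its probe stood in 10 spots on each array, at 52784 and 51876. Log2 ratios of its spots in the same place on both arrays had a mean of -0.03 and an SD of 0.03, and ran from -0.07 to 0.02. The median of this same-place SD over the 272 probes was also 0.03, a different measure from the spot SD of 0.05. The other Npm1 probes gave -0.03 and -0.01. Ncl, nucleolin, had 31183 and 32589 (0.06), but its other probe, at 1016 and 903, gave -0.17, so that the direction of Ncl depends on the probe. Npm3 had 969 and 1006 (0.05). Nolc1, a scaffold that binds snoRNPs, was the lowest of these 4 genes at 8088 and 7512 (-0.11).

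The proteins of box C/D and H/ACA snoRNPs, which place methyl groups and pseudouridines on rRNA, held both the highest nucleolar gene and several lower ones. Fbl, fibrillarin, the box C/D methyltransferase, had 41613 and 47663 (0.20, 1.15-fold, 1 probe), and stayed between 0.18 and 0.27 under the alternative settings. Its direct partners in the particle lay on the other side. Nop56 had 11683 and 10777 (-0.12), and -0.21 with its other probe. Nop58 had 7654 and 7052 (-0.12), with its 4 probes between -0.21 and -0.00. Of the H/ACA proteins, Gar1 had 12697 and 11769 (-0.11) and -0.08 with its other probe. Dkc1, dyskerin, the pseudouridine synthase, had 649 and 612 (-0.09), but its other probe, at 677 and 546, gave -0.31. Nhp2 was level, at 26842 and 26901 (0.00). The median of these 6 genes was -0.10, of which 4 were lower and 2 higher; it was -0.03 with median scaling and -0.12 with quantile normalization.

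Of 11 genes of large subunit assembly 8 were higher and 3 lower, with a median of 0.02, which turned to -0.01 with quantile normalization or loess and -0.03 with normexp. The 3 genes of the PeBoW complex, which processes the large subunit precursor, were all slightly higher with the probe used. Bop1 had 4923 and 5060 (0.04), Pes1 had 7638 and 7979 (0.06, and 0.10 with its other probe), and Wdr12 had 3195 and 3409 (0.09). The other Wdr12 probes gave -0.09 and -0.06, so that its direction depends on the probe. Noc3l, a pre-ribosome transport factor, was the lowest of the 11 and dim, at 240 and 215 (-0.16, 1 probe), a ratio within the SD for dimmer probes. Its partner Noc2l had 5062 and 5325 (0.07). Grwd1, a ribosome assembly chaperone, had 1780 and 1668 (-0.09), with -0.14 for its other probe, and Nop16 had 2326 and 2190 (-0.09). Nop2 at 8181 and 8262 (0.01), Rrs1 at 1614 and 1639 (0.02), the RNA helicase Ddx21 at 2155 and 2168 (0.01) and Mybbp1a at 19622 and 19906 (0.02) were within the spot SD of 0.

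Of 6 genes of small subunit assembly 4 were lower and 2 higher, with a median of -0.04, which turned to 0.03 with median scaling. Utp20, a large scaffold of the small subunit processome, was the lowest, at 1323 and 1193 (-0.15, 1 probe). Of the others, Rrp9, a U3 snoRNP protein, had 1333 and 1397 (0.07), Nop14 had 745 and 721 (-0.05) and its partner Noc4l had 4594 and 4675 (0.02). Wdr43 had 2268 and 2207 (-0.04, and 0.01 with its other probe) and Rrp12, an export factor, 3489 and 3383 (-0.04). Apart from Rrp9 and Utp20 these differences were smaller than the spot SD.

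RNA polymerase I transcribes the rRNA precursor. The catalytic subunits were both lower, Polr1a at 2771 and 2585 (-0.10) and Polr1b at 1043 and 916 (-0.19, 1.14-fold lower, 1 probe each), and Polr1b was lower under each alternative setting, between -0.20 and -0.12. Polr1e, a subunit of the initiation module, lay the other way at 905 and 988 (0.13), but its other probe, at 900 and 901, gave 0.00. Polr1c, which RNA polymerase III shares, had 5574 and 5745 (0.04, and -0.01 with its other probe). Ubtf, the factor that keeps rRNA genes open, had 28522 and 28865 (0.02), while its other probe, at 1235 and 1123, gave -0.14. Taf1d, of the promoter factor SL1, had 1006 and 960 (-0.07, and -0.09 with its other probe). The 6 genes were 3 higher and 3 lower, with a median of -0.02 that turned to 0.05 with median scaling.

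Polyamines are needed for growth, and Odc1 and Srm encode ornithine decarboxylase and spermidine synthase. Odc1, a textbook MYC target, had 8036 and 7350 (-0.13), and -0.01 with its other probe. Srm had 11427 and 11349 (-0.01), with its 3 probes between -0.06 and 0.01. Odc1 was lower under each alternative setting, between -0.16 and -0.06, while Srm changed sign.

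Probes of a gene can be set against each other for 23 of the 43 genes. They lay on both sides of 0 for 6 genes (Ncl, Wdr12, Wdr43, Polr1c, Ubtf and Srm), and beyond the spot SD on both sides for Ncl and Wdr12. They were over 0.2 apart for 3 genes, Ncl, Nop58 and Dkc1. Over all 72 probes of the 43 genes, 31 were higher and 41 lower, with a median of -0.01. The matching shares over all genes with several probes, and over all probes of the array, are not given here. These counts therefore describe the 43 genes alone and do not set them apart from other genes.

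**Figure D3:**
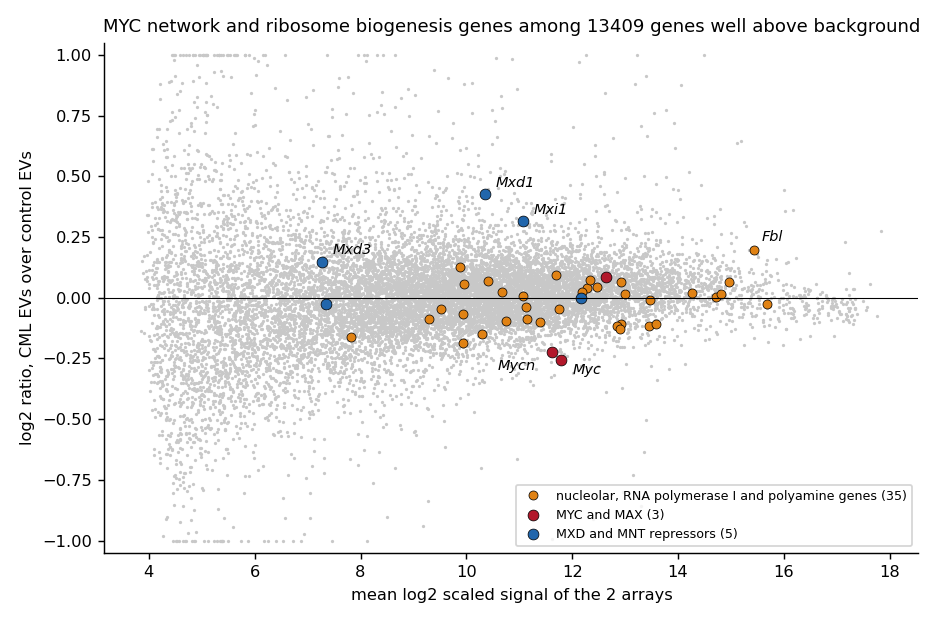
Log2 ratio, CML EVs over control EVs (y axis), against the mean log2 scaled signal of both arrays (x axis) for the 13409 measured genes (grey points); 83 genes with a ratio beyond 1 in size are drawn at the edge. The 35 nucleolar, RNA polymerase I and polyamine genes (orange) lie within the cloud from -0.19 to 0.20; Mxd1 and Mxi1 (blue) lie near its upper edge, and Myc and Mycn (red) near its lower edge, for genes of such signal.

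The 9 genes with CACGTG in the window had a median log2 ratio of -0.00, from -0.15 (Utp20) to 0.09 (Max), and the 27 measured genes with a window but without it a median of 0.00, from -0.22 (Mycn) to 0.43 (Mxd1). The medians of both sets differed by less than the spot SD.

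Further genes of these pathways, from lists that hold none of the 44, also had medians near 0. The counts past 1.1-fold of these lists, here and in the next paragraphs, stand beside 17.3% higher and 17.2% lower in all genes. In the brighter genes these shares were 14.2% and 6.34%. Of 109 further ribosome biogenesis genes 107 were measured, 51 higher and 56 lower, with a median of -0.01, while 2 were at least 1.1-fold higher and 10 at least 1.1-fold lower. The 3 with the largest ratios in size were all lower. Shq1, an H/ACA assembly chaperone, had 222 and 174 (-0.35), but -0.02 with its other probe. Rrp8 had 239 and 203 (-0.24). Tsr1, a factor of late small subunit maturation, had 1206 and 1023 (-0.24), with its 3 probes between -0.35 and -0.09. Of the 14 further RNA polymerase I genes 11 were measured, 5 higher and 6 lower (median -0.00), and 1 was at least 1.1-fold lower, Taf1c of SL1 at 538 and 484 (-0.15). Taf1a was at 40.4 and 37.7 (-0.10) and Polr2h at 2614 and 2463 (-0.09, and 0.09 with its other probe).

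RNA polymerase III transcribes tRNA genes and is likewise under MYC control. Of its 21 genes 9 were higher and 12 lower, with a median of -0.07, which turned to 0.00 with median scaling; 1 was at least 1.1-fold higher and 2 at least 1.1-fold lower. Polr3d had 429 and 367 (-0.23) and Polr3g 501 and 444 (-0.18), while Polr3a had 333 and 378 (0.19).

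Of 22 MYC cofactors and genes of MYC turnover 8 were higher and 14 lower, with a median of -0.06 (0.01 with median scaling), 1 at least 1.1-fold higher and 4 at least 1.1-fold lower. Mlx, the MAX-like protein that also pairs with MXD1 and MNT, had 571 and 739 (0.37), but -0.00 with its other probe. Usp36, a nucleolar deubiquitinase that stabilizes MYC, had 361 and 283 (-0.35), and -0.31 with its other probe. Fbxw7, the ubiquitin ligase subunit that marks MYC for degradation, had 687 and 592 (-0.21), but 0.00 with its other probe. Usp36 was thus the one of these 3 for which both probes were clear of 0.

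Of 59 further MYC target genes 58 were measured, 26 higher and 32 lower, with a median of -0.00, 3 at least 1.1-fold higher and 6 at least 1.1-fold lower. Tert, the catalytic subunit of telomerase, was dim, at 32.6 and 22.6 (-0.53), and its other probe gave 0.16. Fasn, fatty acid synthase, had 36262 and 44481 (0.29). Slc7a5, a leucine transporter, had 47.2 and 39.2 (-0.27).

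Of 16 genes of the polyamine pathway 14 were measured, 9 higher and 5 lower, with a median of 0.02, 2 at least 1.1-fold higher and 2 at least 1.1-fold lower. Paox, polyamine oxidase, had 4422 and 5284 (0.26), and 0.25 with its other probe. Azin2 was dim, at 31.8 and 25.1 (-0.34), and Mtap, which recycles the methylthioadenosine that polyamine synthesis leaves, had 1677 and 1517 (-0.14). Proliferation genes, 20 in number, were 11 higher and 9 lower, with a median of 0.03; the largest ratios were those of Birc5, survivin, at 17837 and 20034 (0.17), Ccnb1, cyclin B1, at 4269 and 4694 (0.14) and Mki67 at 11345 and 12345 (0.12). A difference of at least 1.1-fold was seen for 1 proliferation gene, which was higher, and the 3 largest ratios lay inside the 5th and 95th percentiles of the brighter genes, -0.16 and 0.23.

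**Figure D4:**
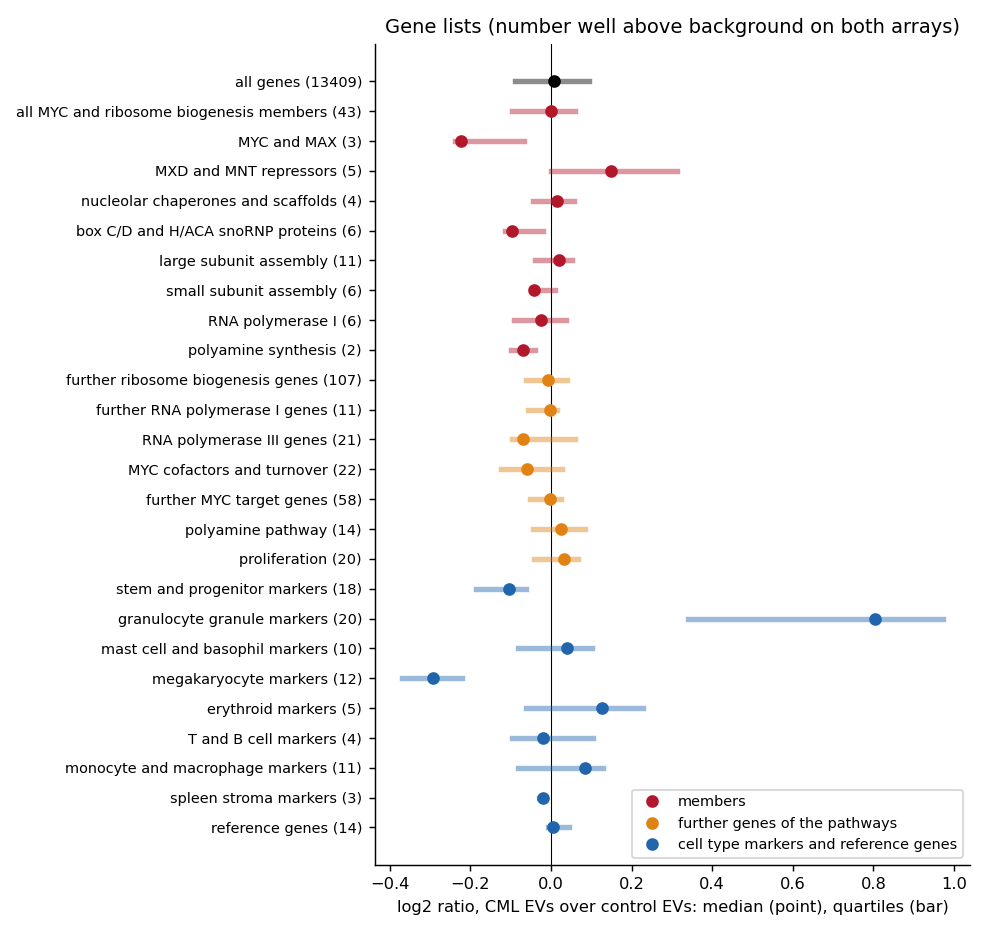
Median log2 ratio, CML EVs over control EVs (points), and quartiles (bars) of each list, with the number of genes well above background on both arrays in parentheses; black is all genes, red the genes described here and their roles, orange further genes of the pathways, blue cell type markers and reference genes. Medians of the ribosome biogenesis lists lie within 0.10 of 0, that of MYC and MAX at -0.22 and of the repressors at 0.15, while granulocyte granule markers lie at 0.80 and megakaryocyte markers at -0.29; with median scaling the medians of red and orange lists that lie between -0.07 and 0 turn above 0.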

How the data were processed

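LKS+ cells co-cultured with control EVs or CML EVs were profiled on 1 Agilent array each. The authors' scanner files hold a processed intensity per spot, from which Agilent Feature Extraction (version 12.0.3.1 in the submitters' processing notes) had subtracted the background. The deposited value table holds that intensity multiplied by 0.942 (control EVs) or 0.947 (CML EVs), on a linear scale and not centred; the medians of its columns were 22.2 and 21.2. Both files give the same ratios.

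Control spots and outlier spots (95 and 88) were dropped. Following the study's methods, the trimmed mean of an array, taken without the 2% of spots at either end, was set to 2500. Spots of 1 probe were averaged on the log2 scale. The files name probes by accession; unversioned RefSeq accessions gave a symbol of GRCm38.p6 to 32994 of 56604 probes. The array refers to another assembly, so probe positions are not given. A gene was represented by its brightest probe on the CML EV array, and counts cover genes flagged well above background on both arrays. E-boxes were sought in RefSeq promoter windows.

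The 44 genes, the further lists and the rule for naming genes (all 44, the 3 largest ratios in size of each further list, Kit, Ly6a, Cd34 and Ptprc, and the 2 largest of a marker list whose median exceeds the spot SD) were chosen with earlier results of these data known. Some marker genes under this rule are not reported here. Mrto4 stands on 2 further lists. The alternatives were other scalings (the median, the 75th percentile or the mean over all spots of an array, quantile normalization, the median ratio of all genes set to 0), normexp background correction (offset 50) with quantile normalization, the deposited values, the choice of probe, removal of a loess trend (span 0.3), outlier spots, the filter on dim probes, the fold and the summary of a list. Precision is limited by the number of arrays, 1 for either EV source, and no test was made. The scaling step was checked on simulated data. Python 3.11.15, numpy 2.4.6, pandas 2.3.3, statsmodels 0.14.6, matplotlib 3.10.9, R 4.3.3 and limma 3.58.1 were used.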

Additional observations from a re-analysis of the deposited data

How the results depend on the processing

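Of 516 values of the 43 genes under 12 alternatives, 444 moved by less than the spot SD of 0.05 and 72 by more. Many of these outcomes were fixed in advance, so the counts do not measure robustness. The deposited values give the same ratios. Scaling an array by another factor, or setting the median ratio to 0, shifts all genes by the same amount. That amount was above the spot SD with median scaling and below it with the others. The choice of probe cannot move the 20 genes with 1 probe. Of the 43 genes, 26 kept their sign throughout and 17, mostly near 0, changed it under some alternative. With median scaling, which put the median of all genes at 0.08, the median log2 ratios were 0.069 over all 43 genes, 0.11 for the MYC network, 0.060 for the other 35 genes, -0.15 for MYC and MAX, 0.22 for the repressors, 0.085 for the nucleolar chaperones, -0.028 for the snoRNP proteins, 0.091 for large subunit assembly, 0.029 for small subunit assembly, 0.046 for RNA polymerase I and 0.00104 for polyamine synthesis; 14 genes were then lower, 8 at least 1.1-fold higher, 2 at least 1.1-fold lower and 2 at least 25% higher. At least 1.1-fold lower were 8 genes with quantile normalization, 11 with normexp and 10 with the loess trend removed, and with normexp the 35 genes outside the network had a median of -0.063. Scaling to the mean of all spots made 2 genes at least 25% higher. With the mean of all probes, or the median over probes, MYC and MAX had a median of -0.17, the repressors of 0.088 and the chaperones of -0.038 and -0.039; with the probe highest in the control EV culture the repressors had 0.028. Taken as means over genes, MYC and MAX had -0.13 and the snoRNP proteins -0.039. At 1.1-fold in place of a 25% difference 4 genes were higher and 5 lower, at 1.5-fold and at 2-fold none was higher, and without the filter on dim probes 1 gene, Mycl, was lower by this rule (25% higher with control EVs). No paired analysis was possible because there was a single array for either EV source. The cause of these moves was not tested. With 1 array per condition, signal over background limits the dim genes, of which Mxd3, Mxd4 and Noc3l had a mean log2 signal under 8 and ratios within the SD of 0.19 for such probes.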
